A study of Mus musculus with 12 samples.

Results

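Late 5hmC gain was the set of hydroxymethylated loci at which 5hmC was nearly equal in proliferative progenitors (PP) and differentiative progenitors (DP) and higher in newborn neurons of the E14.5 mouse cortex. Of 47478 5hmC peaks, 548 (1.15%) met the rule, which asked for a log2 level in neurons at least 1.5 above that in DP and a difference between DP and PP of less than 0.5 in either direction. The 3 cell types came from embryos carrying 1 copy each of a Btg2-RFP and a Tubb3-GFP reporter. PP were sorted as RFP-/GFP-, DP as RFP+/GFP-, and neurons as GFP+ irrespective of RFP, so that neurons are defined by the promoter of a single gene, Tubb3. Methylated (5mC) and hydroxymethylated DNA was pulled down with antibodies, (h)MeDIP, from barcoded DNA of all cell types mixed in one reaction, and the series lists 6 IP and 6 input samples. The level of a peak is the authors' log2 mean normalized read level over 3 biological replicates. The replicates are merged in these values, so they show neither a spread between replicates nor the read depth behind a peak. No difference below could be tested from them, and the authors' own fold changes and p-values for each peak were not used. Intervals are 95% Clopper-Pearson intervals for shares and order-statistic intervals for medians, and they cover counting error over peaks or genes only.

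5hmC is made from 5mC by the Tet dioxygenases and is an intermediate of demethylation, but it also persists as a stable mark and is abundant in the brain, where it is known to build up in gene bodies and distal regulatory elements as neurons mature. In the developing cortex, PP in the ventricular zone give rise to DP, which are committed to making neurons, so that a locus with late gain separates the postmitotic cells from both progenitor types. The cell types are described here by the expression given for the nearest genes, which comes from an earlier RNA-seq study of the authors. Those values come from other libraries, so they do not check the sort behind the 5hmC levels. Btg2 and Tubb3, counted below among the markers, are also the genes of the sort reporters. All 7 PP markers with a value were highest in PP, all 7 DP markers in DP, and all 5 neuron markers with a value, Tubb3, Dcx, Tbr1, Stmn2 and Gap43, in neurons. Markers of interneurons (4 of 6 with a value) and of Cajal-Retzius cells (4 of 5) were also highest in neurons. Their summed expression in PP, DP and neurons was 971, 3616 and 10576 for interneurons and 193, 1520 and 37242 for Cajal-Retzius cells, of which Reln alone gave 36007 in neurons. Glial, vascular and blood markers (12 of 14 with a value) summed to 1200, 1058 and 215, with Gfap and Sox10 listed at 0 in neurons. The part of these other cells in the 5hmC levels was not tested.

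Most late-gain loci lay far from transcription start sites (TSS), and 4 of 548 (0.73%) overlapped a RefSeq promoter window of 250 bases before to 50 after a start site, against 385 of all 47478 peaks (0.81%). These 4 are the members whose sequence could be read here, and they are shown for their CpGs, the dinucleotides that carry most cytosine modification. The part of each peak inside the window is printed 5′ to 3′ on the strand of the gene that the promoter belongs to (RefSeq, GRCm38.p6, the assembly also called mm10), with CpG dinucleotides in capitals. Whether the deposited starts count from 0 or from 1 is not stated, so an edge may be off by 1 base.
Gm29733, minus strand, chr1:170850932-170851030: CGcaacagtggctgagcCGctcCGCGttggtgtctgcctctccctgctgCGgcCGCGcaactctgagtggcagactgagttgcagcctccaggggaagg
Gm30648, plus strand, chr3:134199899-134200027: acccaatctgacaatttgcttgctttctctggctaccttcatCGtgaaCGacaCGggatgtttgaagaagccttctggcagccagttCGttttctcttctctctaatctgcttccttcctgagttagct
Gm42281, plus strand, chr4:46621675-46621790: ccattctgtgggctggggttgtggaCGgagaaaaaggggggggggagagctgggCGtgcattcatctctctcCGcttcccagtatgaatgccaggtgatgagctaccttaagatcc
Aknaos, plus strand, chr4:63377024-63377155: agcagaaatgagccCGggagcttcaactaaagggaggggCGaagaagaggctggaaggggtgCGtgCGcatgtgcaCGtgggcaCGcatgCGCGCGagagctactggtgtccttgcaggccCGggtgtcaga

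The 4 stretches held 7, 4, 3 and 10 CpGs, or 7.07, 3.10, 2.59 and 7.58 CpGs per 100 bases. The median was 5.09, beside 2.5 for the 385 peaks in promoter windows, whose values ranged from 0 to 25. The peak at Gm29733, for which the authors' nearest gene was Atf6, had log2 5hmC levels of 1.18 and 1.25 in PP and DP and of 4.84 in neurons. At Gm30648, next to Cxxc4, the levels were 2.06, 2.55 and 4.73. At Gm42281, next to Coro2a, they were 2.36, 2.10 and 4.41, and at Aknaos 2.11, 2.30 and 4.99. In each case the level in neurons stood well above both progenitor levels, as the rule asks. The E-box hexamers CAGATG and CAGCTG, searched on both strands, were in none of the 4 stretches, and in 7.79% and 7.27% of the 385. With only 4 stretches, absence at such shares is likely, and nothing is read from the CpG or motif values.

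The values that chose the loci are given here as a description, and nothing is read from them. The median log2 5hmC level of the 548 members was 2.89 in PP and 2.92 in DP but 4.84 in neurons. The gain from DP to neurons had a median of 1.87, a 3.66-fold difference, and ranged from 1.502 to 5.10. The progenitor levels were low for this table, where the medians were 4.72 (PP), 4.71 (DP) and 4.75 (neurons). The median member ranked at percentile 1.67 of all peaks in DP, 4.92 in PP and 55.2 in neurons. Each member had to be called a peak in some cell type to be listed. A DP level under 2 was found in 69 members, and 3 members stood at the lowest DP level of the table, 0.09, where the size of the gain is least certain.

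**Figure D1:**
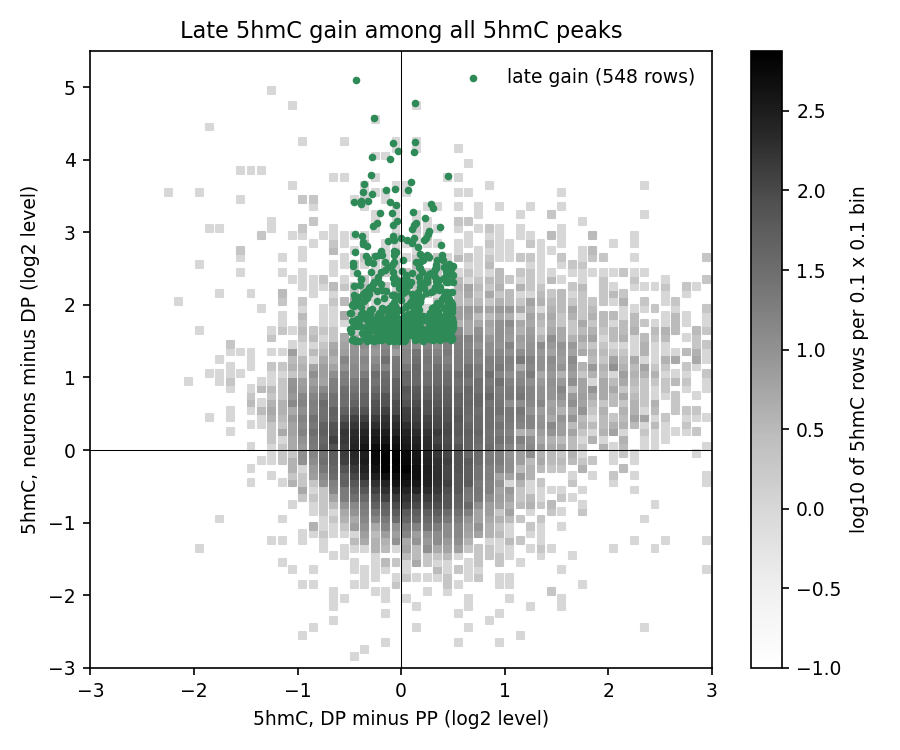
Each gray square is a bin of 5hmC peaks by their log2 difference from PP to DP (x axis) and from DP to neurons (y axis), darker with more peaks, and green points are the 548 late-gain members. The members fill the block above 1.5 on the y axis and between -0.5 and 0.5 on the x axis that the rule cuts out, and 99 peaks of the table lie outside the plotted range.

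A gain of 1.5 or more from DP to neurons was found at 1483 peaks (3.12%), of which 548 were late gain. Another 798 had already gained at least 0.5 from PP to DP (gain in both steps), and at 137 the level was lower in DP than in PP by at least 0.5. The mirror set of late loss, with a level in neurons lower by 1.5 or more and equally flat between PP and DP, held 56 peaks. Early gain, defined by a gain of 1.5 or more from PP to DP and less than 0.5 afterwards, held 217. The cutoffs run through a continuum. Just inside the limit on the gain were peaks nearest to Dok5 (1.5016), Rassf3 (1.5029) and Usp6nl (1.5035), and just outside were those nearest to Pi16 (1.49995), A3galt2 (1.4992) and Atp2b1 (1.4987). At the limit on the PP to DP difference, Rpsa-ps10 (0.4996), Lrch1 (-0.4985) and Smad3 (0.4985) were inside, and Arhgap24 (-0.5004), Myo15b (0.5006) and Ccrn4l (0.5026) outside.

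**Figure D2:**
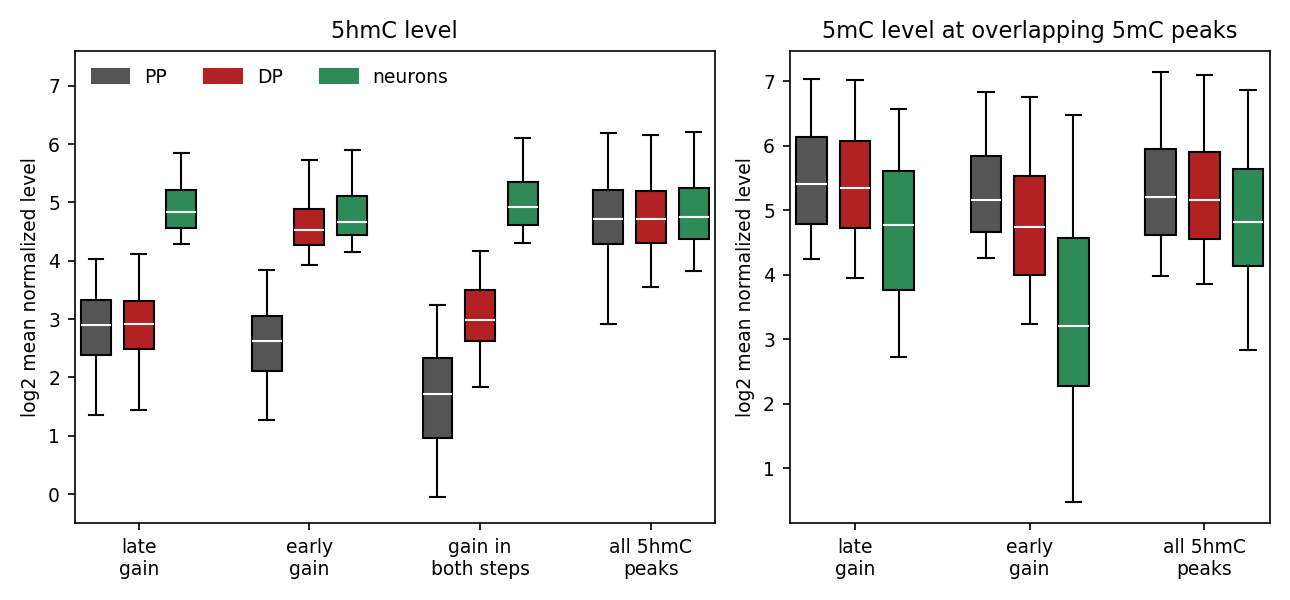
Left, log2 mean normalized 5hmC level by cell type for 548 late-gain, 217 early-gain, 798 both-step and all 47478 5hmC peaks, and right, the 5mC level of the 5mC peaks that overlap them (232 late-gain, 66 early-gain and 6727 pairs in all). Boxes span the quartiles with the median as a white line, and whiskers reach from the 5th to the 95th percentile. The median 5mC at late-gain loci is 5.34 in DP against 4.78 in neurons.

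The 10 widest gains were at loci with very low 5hmC in progenitors. The largest was inside Lmo7, which encodes a LIM domain protein, 114 kb past its TSS at chr14:101843502-101843662, with levels of 1.02 (PP), 0.58 (DP) and 5.68 (neurons), a 34.3-fold difference between DP and neurons. Expression of Lmo7 was 1070, 501 and 1727 in PP, DP and neurons. The second was 89.7 kb upstream of Arglu1, a splicing and transcription cofactor, with levels of -0.05, 0.09 and 4.87, and the next lay 91.5 kb from the TSS of Pdgfra, the receptor that marks oligodendrocyte progenitors, with 0.35, 0.09 and 4.66. Expression of Arglu1 differed little, at 8674, 8527 and 8229, and that of Pdgfra was low throughout and lowest in neurons at 29.6. Hence the nearest gene of a wide gain was higher in neurons in the first case and not in the others. Tgfbr2, a TGF-beta receptor subunit, had a member 176 kb upstream with a gain of 4.11 and expression of 146, 136 and 7.2. Lrrn1, which encodes a neuronal leucine-rich repeat protein, had one 262 kb upstream with a gain of 4.04 and expression of 2830, 4414 and 4847. The other members among the 10 widest gains were nearest to Gm10288 (4.24), Mir5105 (4.23), Gm5449 (4.10), Mir343 (4.00) and Gm5083 (3.79), predicted or microRNA genes. All 10 were at least 1 kb from the TSS except the one at Mir343, at 956 bp.

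5mC was measured in separate pull-downs and was not used to choose the loci. A larger share of late-gain loci than of 5hmC peaks in general overlapped a 5mC peak. By at least 1 bp, 232 of 548 members (42.3%, interval 38.2 to 46.6) did so, against 14.2% of all 5hmC peaks, 30.4% of early gain (24.4 to 37.0) and 39.3% of gain in both steps (35.9 to 42.8), whose interval overlaps that of late gain. Of the 56 late-loss peaks, 5 (8.93%, 2.96 to 19.6) overlapped one. At the loci where both marks could be read, 5mC in progenitors was somewhat above that of all pairs, and 5mC in neurons was lower than in progenitors. In PP, DP and neurons, the median 5mC level was 5.403, 5.34 and 4.78, beside 5.21, 5.15 and 4.82 over all 6727 overlapping pairs. In DP the median member stood at percentile 62.1 of all 5mC peaks, and in neurons at percentile 45.8.

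From DP to neurons, 5mC at late-gain loci differed by a median of -0.58 (-0.69 to -0.48), against -0.29 (-0.30 to -0.28) over all pairs. Over the whole 5mC table of 55085 peaks the median was -0.18, so that neurons were lower in general, and relative to it the median at late-gain loci was -0.40 and over all pairs -0.11. A level lower by at least 0.58, or 1.5-fold, was found at 116 of the 232 loci (50%, 43.4 to 56.6), where 28.7% of all pairs had one. Relative to the table's median there were 87 (37.5%, 31.3 to 44.1), against 21.0%. A level higher by at least 0.58 was found at 1 locus (0.43%), against 1.71% of all pairs, and at 2 (0.86%) relative to the median, against 3.85%. At 221 of the 232 loci (95.3%) 5mC was lower in neurons than in DP to any extent, beside 78.1% of all pairs. In the earlier step 5mC at these loci differed little. From PP to DP the median was -0.09, and 5mC was lower by at least 0.58 at 18 loci (7.76%, 4.66 to 11.98) and higher at 4 (1.72%), against 8.03% and 4.06% of all pairs.

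At early-gain loci the 5mC difference began earlier and was wider. At their 66 pairs the median from PP to DP was -0.40, with 25 (37.9%, 26.2 to 50.7) lower by at least 0.58, and the median from DP to neurons was -1.25 (-1.90 to -0.75), with 46 (69.7%, 57.1 to 80.4) lower. In neurons the median 5mC level was 4.78 at late-gain loci beside 3.21 at early-gain loci. Loci with gain in both steps lay between, with a median of -0.83 (-0.92 to -0.77) from DP to neurons. A lower 5mC level was also found at late loss, where 5hmC fell. Its 5 pairs had a median of -2.98 (-3.63 to 0.12), with 3 lower by at least 0.58. The 5mC and 5hmC levels have no common scale, so the amounts of the marks at a locus cannot be set against each other.

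**Figure D3:**
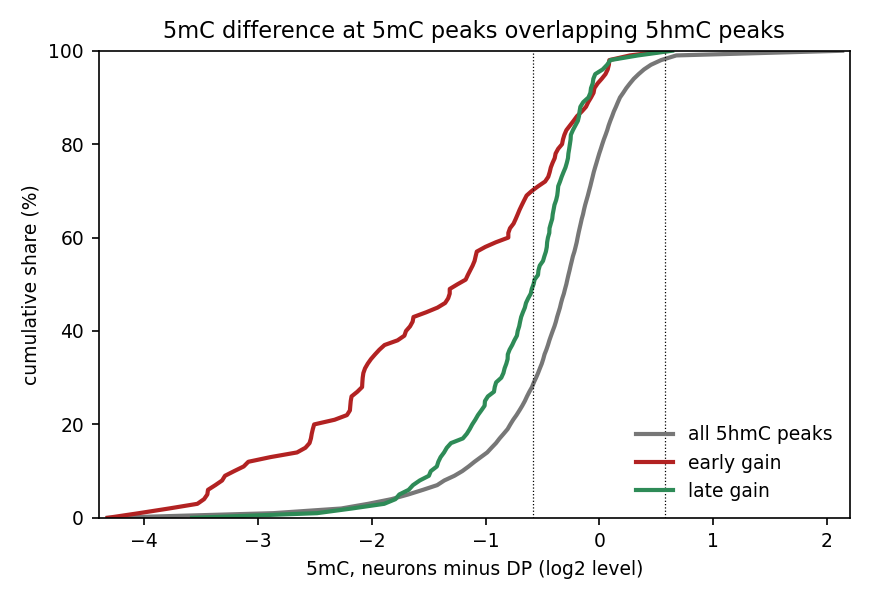
Cumulative share of 5mC peaks (y axis, percent) by their log2 5mC difference from DP to neurons (x axis) for the 232 pairs of late gain, 66 of early gain and 6727 of all 5hmC peaks, with dotted lines at -0.58 and 0.58. The late-gain curve crosses 50% near -0.58 and the curve of all pairs near -0.29, while early gain reaches it at -1.25.

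Among single loci, the greatest 5mC difference was inside Atrnl1, an attractin-like transmembrane protein, at chr19:57816944-57817125. 5mC there was 4.49 and 4.65 in PP and DP and 1.07 in neurons, while 5hmC was 2.83, 3.20 and 5.02. Expression of Atrnl1 was 2044, 3122 and 10302, highest in neurons. Bsn, which encodes the presynaptic scaffold Bassoon, held a member at chr9:108154907-108155028 with 5mC of 4.86, 5.01 and 2.85 and 5hmC of 2.83, 3.16 and 5.71. Its expression was 837, 3396 and 20604. Loci near Slc9a8, a sodium/proton exchanger of the Golgi, and near Gm16518 had 5mC differences of -2.80 and -2.56, a locus inside Tssc1 one of -2.30, and one 92 kb upstream of Gm5083 one of -2.20. At these 6 loci the 5mC level in neurons was between 0.52 and 2.91, below both progenitor levels. In the other direction, 5mC was 4.55, 2.9998 and 3.64 at the member 168 kb upstream of Snx7, a difference of 0.64 between DP and neurons that left neurons below PP. The next were 0.48 at another locus near Gm5083, which passed 0.58 relative to the table's median, and 0.38 near Ypel2.

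Late-gain loci were inside the nearest gene in 251 of 548 cases (45.8%, 41.6 to 50.1), against 36.2% of all 5hmC peaks, 41.9% of early gain (35.3 to 48.8) and 41.6% of gain in both steps (38.2 to 45.1). Upstream peaks made up 33.6% (29.6 to 37.7) of late gain and 42.1% of all peaks. The median distance to the TSS was 29.0 kb, beside 27.2 kb for all peaks. Over 100 kb from a TSS lay 75 members (13.69%, 10.92 to 16.85), an interval below the 17.44% of all peaks. It overlapped the intervals of early gain and of gain in both steps. Shares close to a TSS were like those of all peaks. Within 2 kb of a TSS lay 34 members (6.204%, 4.33 to 8.56) beside 6.63% of all peaks, and within 5 kb 79 (14.4%) beside 14.8%. Members were narrower, with a median width of 135 bp and a range from 102 to 296, than all peaks (164 bp) and early gain (157 bp), and like gain in both steps (134 bp). Genes that held a member inside were long, with a median of 86.4 kb for the 92.4% matched to RefSeq, against 41.5 kb for all genes with a 5hmC peak inside. Early-gain genes were of like length, with a median of 83.8 kb. However, long genes hold more peaks, and counted once per peak the medians were 91.0 kb for late gain and 81.6 kb for all peaks. Per peak, early gain and gain in both steps were each at 86.4 kb, so long genes were not particular to late gain. All autosomes held members, from 0.82% of the peaks on chromosome 17 (0.47 to 1.33) to 1.66% on chromosome 11 (1.22 to 2.21). On the X chromosome 1 of 1009 peaks was a member (0.099%, 0.0025 to 0.55), an interval that lies below the 1.15% of all peaks. As a share of each set, the X held 0.18% of late gain (0.0046 to 1.01) and 0.38% of gain in both steps (0.078 to 1.09). Early gain had 0 of 217 there (0 to 1.69), beside 2.13% of all peaks, so the low share was not particular to late gain.

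The members were spread over 506 gene symbols, 472 of which had a single member, 27 had 2, and 7 had 3 or more. One of the 7, 7SK, names many copies of a small nuclear RNA on several chromosomes. It is left out of the genes named below but kept in the counts. Neighbouring members less than 10 kb apart made up 8 pairs, at distances from 361 to 8829 bp, and both members of each pair were nearest to the same gene. The closest pair was inside Nfatc2, a calcium-responsive transcription factor, at chr2:168579827-168579968 and chr2:168580329-168580447, with gains of 1.73 and 2.35. Another member of Nfatc2 had a gain of 1.52, whereas expression of the gene was 410, 2441 and 428 in PP, DP and neurons. The other genes with 3 members were A730018C14Rik, Tssc1, Gm5083, Myt1l and Spock1, and genes with 2 that had the highest median gain were Gm5449, Ephb2, Pla2g2c and Skap2.

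Myt1l encodes a zinc finger factor that represses nonneuronal genes, and its expression was 168, 1706 and 28634 in PP, DP and neurons. All 3 of its members were inside the gene, at 10.4, 121 and 128 kb from the TSS, among 18 5hmC peaks nearest to it. The first, at chr12:29538657-29538829, had 5hmC levels of 4.42, 4.12 and 5.65, the second 2.60, 2.60 and 4.40, and the third 2.95, 3.43 and 5.01. The other 15 peaks differed from DP to neurons by a median of -0.04, from -1.51 to 0.81, and the peak at -1.51 lay 132 kb from the TSS, about 4 kb from the third member. Late-gain peaks and peaks with no or opposite difference lay side by side within the gene. None of the 3 members overlapped any of the 11 5mC peaks nearest to Myt1l.

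Tubb3 encodes the neuron-specific beta-tubulin whose promoter drives the GFP reporter of the sort, and its expression was 3814, 25259 and 105657. Members were 2 of its 4 5hmC peaks. The one at chr8:123410458-123410579, 907 bp upstream of the TSS, had 5hmC of 3.03 and 3.30 in PP and DP and of 5.72 in neurons, and 5mC at the overlapping peak was 6.52, 6.03 and 4.36. The other, 9.5 kb past the TSS, had 5hmC of 3.94, 3.83 and 5.79 and overlapped no 5mC peak, though a 5mC peak beside it had 6.20, 6.47 and 5.85. Its remaining 5hmC peaks had differences of 0.74 and 0.12 from DP to neurons. At both members neurons stood above the progenitors, between which the 5hmC difference was 0.27 at the first and -0.12 at the second.

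**Figure D4:**
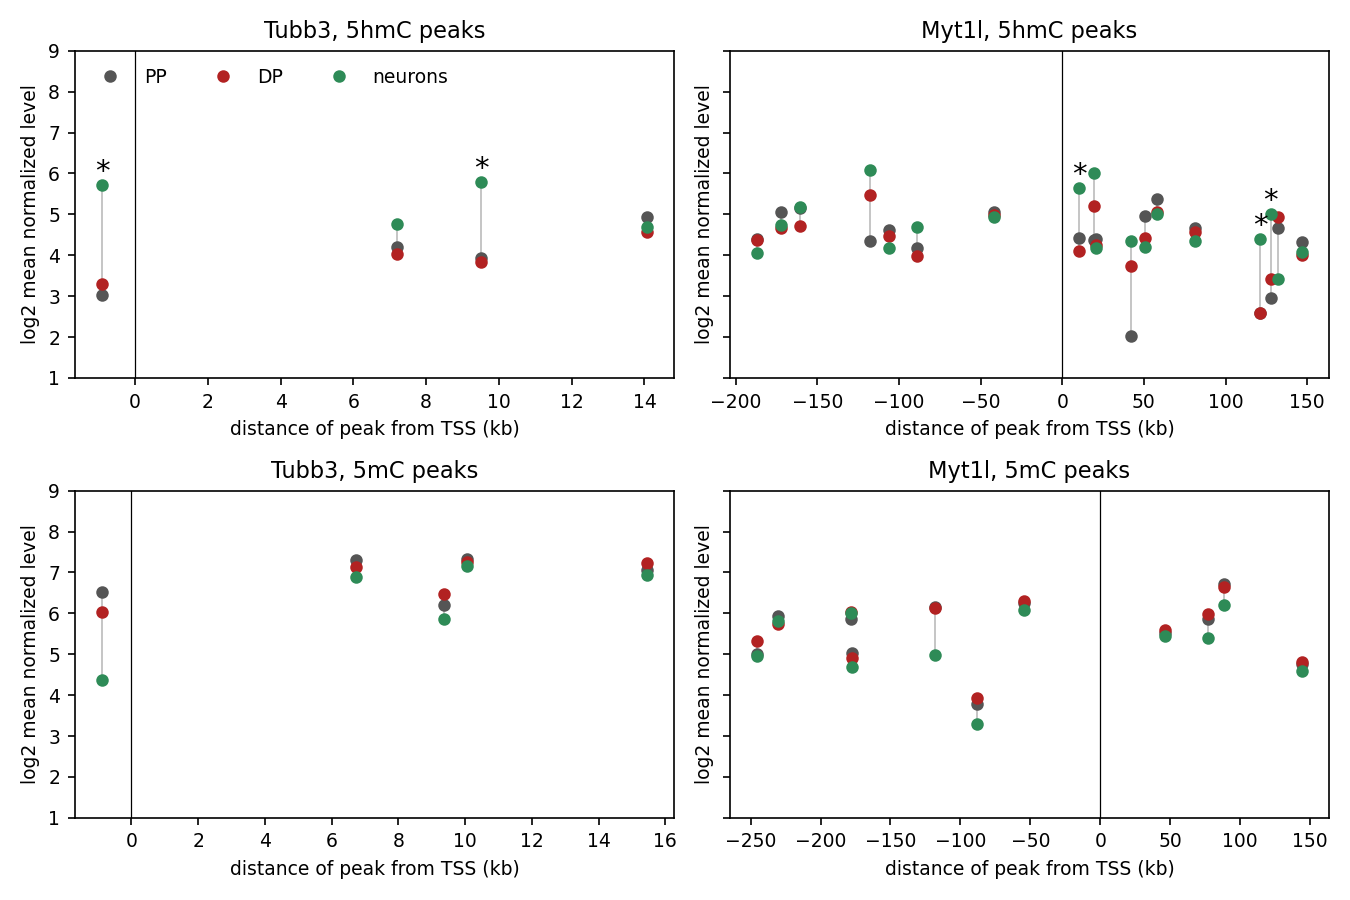
Log2 mean normalized level (y axis) of each 5hmC peak (top) and 5mC peak (bottom) nearest to Tubb3 (left) and Myt1l (right) by its distance from the TSS in kb (x axis), in PP (gray), DP (red) and neurons (green), with stars at late-gain members. At the Tubb3 peak 907 bp upstream the 5hmC level is 5.72 in neurons and 3.30 in DP, and the 5mC level 4.36 and 6.03.

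Spock1, which encodes a brain proteoglycan, had 35 5hmC peaks with members inside, upstream and downstream, and expression of 61.8, 158 and 4517. Ephb2, an axon guidance receptor for ephrin-B ligands, had both members in the gene body, with gains of 3.43 and 1.94. At the first of these, 2.8 kb past the TSS at chr4:136833099-136833210, 5hmC was 2.25, 1.86 and 5.29, and 5mC was 4.27, 3.98 and 2.45. Its expression differed less, at 12112, 13932 and 17614. A730018C14Rik had 3 members with a median gain of 1.90 and expression of 2.5, 1.0 and 19.9, and Skap2, an adaptor of Src kinases, 2 members and 22.8, 24.6 and 140. Pla2g2c had 2 of its 3 5hmC peaks in the set, and its expression was under 5 in every cell type.

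Of the genes nearest to late-gain loci, a larger share than of genes in general was higher in neurons. The expression values come from an earlier RNA-seq study of the authors, were averaged over replicates, and have no scale named in the tables, and a larger share of expressing cells cannot be told apart from more RNA per cell. In PP, DP and neurons, the median over 509 genes was 482, 530 and 799, beside 403, 414 and 398 over all 12992 genes with a 5hmC peak. Expression was higher in neurons than in DP by at least 0.58 on the log2(value + 1) scale for 205 genes (40.3%, 36.0 to 44.7), against 28.2% of all genes, and lower for 121 (23.8%, 20.1 to 27.7), against 27.0%. The median difference was 0.28 (0.18 to 0.36), against 0.01 for all genes. At a 4-fold difference, 80 genes (15.7%, 12.7 to 19.2) were higher, against 9.11%. Genes with many peaks have more chances to hold a member, with a median of 6 5hmC peaks per late-gain gene and 2 per gene in all. Counted once per peak, 40.5% of members (36.4 to 44.8) and 33.0% of all peaks were next to a gene higher in neurons, and 23.4% and 27.6% next to one that was lower. In the earlier step, 129 genes (25.3%, 21.6 to 29.4) were higher in DP than in PP and 83 (16.3%) lower, against 15.2% and 17.9% of all genes. The share higher in DP was 30.1% (24.0 to 36.9) for early gain and 26.0% (22.8 to 29.4) for gain in both steps. Shares for this step were not counted per peak.

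The interval for late gain overlapped that of early gain, of whose 209 genes 74 (35.4%, 28.9 to 42.3) were higher in neurons. It also overlapped those of gain in both steps, with 274 of 696 (39.4%, 35.7 to 43.1), and of late loss, with 24 of 55 (43.6%, 30.3 to 57.7). Of the 237 genes with a member inside, 41.8% (35.4 to 48.3) were higher in neurons, and of the 279 with a member outside 39.4% (33.7 to 45.4). The same shares were 31.9% of all 6962 genes with a 5hmC peak inside and 28.4% of the 9740 with one outside. The share was alike with and without a lower 5mC level. There were 36 of 86 genes (41.9%, 31.3 to 53.0) higher where 5mC was lower by 0.58 relative to the table's median and 58 of 144 (40.3%, 32.2 to 48.8) where a 5mC peak lacked such a difference. Where members overlapped no 5mC peak, 120 of 302 genes (39.7%, 34.2 to 45.5) were higher. Genes that were lower in neurons made up 15.1% (8.30 to 24.5), 26.4% (19.4 to 34.4) and 25.2% (20.4 to 30.5) of these groups, with overlapping intervals. Over all 5hmC peaks with such a lower 5mC level, 436 of 1174 genes (37.1%, 34.4 to 40.0) were higher and 24.5% lower.

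**Figure D5:**
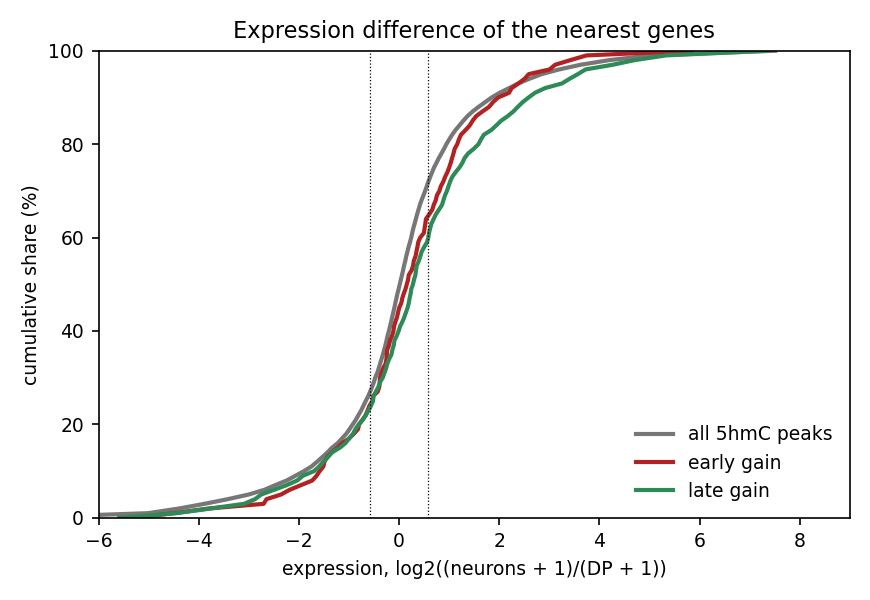
Cumulative share of genes (y axis, percent) by log2((neurons + 1)/(DP + 1)) expression (x axis) for 509 genes nearest to late gain, 209 nearest to early gain and all 12992 genes nearest to a 5hmC peak, with dotted lines at -0.58 and 0.58. Above 0.58 lie 40.3% of the late-gain genes, 35.4% of the early-gain genes and 28.2% of all genes.

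Within 2 kb of a TSS, 25 of the 34 members had a gene with an expression of at least 50 in some cell type, of which 11 were higher in neurons and 3 lower. In PP, DP and neurons, Svop, a synaptic vesicle protein, was at 55.0, 582 and 6982, with 5hmC of 1.80, 1.43 and 4.29 at 1.5 kb past its TSS. Jakmip3 was at 7.5, 16.2 and 185, and Gm11744 at 3.7, 13.7 and 172. Sparcl1, a secreted matricellular protein, was at 885, 180 and 1468, lowest in DP, with 5hmC of 3.07, 2.76 and 4.99 at 800 bp upstream. These 4 genes had their highest value in neurons. The 3 lower genes were Wnt5b, a Wnt ligand, at 552, 443 and 116, Prdx6b at 191, 131 and 52.0, and Aldh16a1 at 1609, 1532 and 940. At Aldh16a1 the peak was 458 bp upstream, with 5hmC of 2.63, 2.49 and 4.43, so a gain close to the TSS was found with either direction of expression. Over all 5hmC peaks within 2 kb of a TSS, 30.4% of 2865 genes were higher in neurons, within the interval of 27.2 to 62.1 around the 44.1% of the 34 late-gain genes. Lower in neurons were 25.4% of the 2865 genes and 4 of the 34 (11.8%, 3.30 to 27.5), an interval that also includes the share of all. No share of all genes was taken under the expression limit of 50, so the 11 and 3 above have no matched background.

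The neuronal gene groups listed here held few members each. The lists are not complete, and a member also lay near Svop, the synaptic vesicle protein named above, which is in none of them. Over 14 lists, 25 of the 356 genes that had a 5hmC peak (7.02%) had a late-gain member, against 506 of 12848 gene symbols in all (3.94%). They held 30 members, and 15 of the 25 genes were higher and 6 lower in neurons than in DP. Counted per peak, these 30 members were 1.18% of the 2553 peaks of the listed genes (0.79 to 1.67), beside 1.15% of all peaks. Of all listed genes with a 5hmC peak, 60.5% were higher and 24.3% lower in neurons. Among genes of the neuronal cytoskeleton and migration, 5 of 209 peaks (2.39%, 0.78 to 5.49) were members, beside 1.15% of all peaks. They were at Tubb3, Ank3, Cdk5r1 and Tiam1. Ank3 encodes the ankyrin G of the axon initial segment and was at 482, 3219 and 33374, with 5hmC of 3.44, 3.54 and 5.33 at a peak deep inside the gene. Cdk5r1, the p35 activator of Cdk5, was at 1255, 6059 and 34896, with 5hmC of 3.40, 2.99 and 4.79 at 13.8 kb from its TSS. Tiam1, an activator of Rac, was at 1858, 2511 and 3553 and had a member 113 kb upstream.

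Axon guidance genes had 6 members among 390 peaks (1.54%, 0.57 to 3.32), at Ephb2, Robo1, Sema4d, Sema5b and Efna5. Robo1, a Slit receptor, was at 987, 1724 and 18508, and Sema4d at 1435, 771 and 5063, both highest in neurons. Sema5b was at 17194, 9236 and 2429, highest in PP, and yet 5hmC 23.1 kb upstream of it was 3.57, 3.30 and 5.04. Synaptic vesicle and exocytosis genes had 3 members among 137 peaks (2.19%, 0.45 to 6.27), at Bsn and, with 2, Erc2. Erc2, an active zone protein, was at 462, 731 and 5380, and its members had 5hmC of 2.58, 2.62 and 5.03 and of 3.14, 3.31 and 5.24. Projection neuron identity factors had 5 of 224 (2.23%, 0.73 to 5.13), 3 at Myt1l, 1 upstream of Id2 and 1 upstream of Otx1. Id2, an inhibitor of bHLH factors, was at 1390, 2190 and 10808, whereas the homeobox factor Otx1 was at 9116, 9785 and 2215. The interval of each of these lists includes the 1.15% of all peaks.

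The other groups held 2 members or fewer, and the interval of each included the 1.15% of all peaks. Synaptic adhesion genes had 2 of 392 peaks (0.51%, 0.062 to 1.83), at Flrt2, which was at 1630, 1267 and 10993, and Sdk2, at 972, 1952 and 642. Neurotransmitter receptors had 1 of 280 (0.36%), inside Gabbr2, a subunit of the GABA-B receptor that was at 2.1, 12.4 and 1185. Ion channels had 1 of 253 (0.40%), inside the calcium channel subunit gene Cacna2d1, which was at 1328, 6439 and 10470. Neuronal RNA-binding proteins had 1 of 195 (0.51%), inside Elavl3, which was at 7284, 18530 and 56043, with 5hmC of 3.54, 3.59 and 5.58. Neurogenic bHLH factors and their partners had 0 of 77 peaks, an interval up to 4.68%. Progenitor genes had 1 of 193 (0.52%), inside the glutamate transporter gene Slc1a3, which was at 18015, 5274 and 872. Enzymes and readers of cytosine modification had 1 of 62 (1.61%), inside Tet3, one of the dioxygenases that make 5hmC, at 16371, 18896 and 19753. Tet3 thus differed little in expression while 5hmC in its body was 2.93, 2.46 and 5.05, and 5mC at the same locus 5.34, 5.42 and 5.24.

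Markers of other cells also had members. These were 1 of 36 peaks (2.78%, 0.070 to 14.53) at interneuron markers, 1 of 33 (3.03%, 0.077 to 15.8) at Cajal-Retzius markers and 2 of 81 (2.47%, 0.30 to 8.64) at glial, vascular and blood markers, and each interval includes the 1.15% of all peaks. One lay 4.8 kb upstream of Maf, a factor of interneurons at 225, 140 and 1750, and one 11.5 kb upstream of Lhx5, a factor of Cajal-Retzius cells at 3.2, 38.9 and 394, with 5hmC of 2.33, 2.26 and 4.63 and of 2.52, 2.45 and 5.14. Both genes were highest in neurons, as were the summed markers of these cell types. Members at Pdgfra and at P2ry12, a microglial receptor that was at 17.8, 14.3 and 4.8, lay next to genes with low expression in neurons. 5hmC inside P2ry12 was 1.63, 1.80 and 4.60.

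Other 5hmC peaks of the same genes, which the rule did not choose, were also shifted towards neurons. Over 3642 such peaks the median difference from DP to neurons was 0.11, beside -0.02 for all peaks, and 848 (23.3%, 21.9 to 24.7) were higher by at least 0.58, against 15.9% of all peaks. The corresponding peaks of early-gain genes gave 26.1% (23.9 to 28.4). Peaks of a gene lie on the same DNA and share libraries, so they are not independent of one another.

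The members were also divided by the width of their gain, the value that chose them, so the classes are described only. Of the 330 members with a gain under 2, 37.9% (32.6 to 43.4) overlapped a 5mC peak, of the 179 with a gain from 2 to 3 48.0% (40.5 to 55.6), and of the 39 with a gain of 3 or more 53.8% (37.2 to 69.9). The median 5mC difference from DP to neurons in these classes was -0.54, -0.60 and -0.69. The median 5hmC level in neurons was nearly the same, at 4.85, 4.81 and 4.80, while the level in DP was 3.15, 2.48 and 1.24. Members inside a gene made up 47.3% (41.8 to 52.8), 48.6% (41.1 to 56.2) and 20.5% (9.30 to 36.5), and nearest genes that were higher in neurons 38.4% (33.1 to 44.0), 45.1% (37.6 to 52.8) and 30.8% (17.0 to 47.6).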

How the data were processed

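Reads were mapped by the authors on mm10 (BWA 0.7.8-r455), peaks were called with SICER 1.1, those found in all replicates outside repeats were kept, and levels were computed with DiffBind. The deposited levels are log2 of the mean TMM-normalized reads per cell type, and the deposited expression values are a score whose scale the tables do not name. FPKM is the unit the study's text names for such values, which was not checked and is not used here. The value of Dcx in neurons was 119166. Peak starts, ends and distances to the TSS are as deposited by the authors (HOMER 4.7). Columns holding the authors' own folds, p-values, expression changes and q-values were not used. All differences were computed from the levels. Both tables were read whole, with 55085 and 47478 rows. Expression differences are log2 of (value + 1). Peaks of both marks were paired when sharing at least 1 bp. The RefSeq gene of the same symbol covered 98.2% of peaks that the tables place inside it. The selection rule and the pairing of peaks were run on simulated data with planted gains, as a check of the code only. Members and gene lists were chosen with earlier results of these data known. Named genes were the 10 widest gains, the 10 genes with most members, and up to 4 genes per list by number of members (a list with 1 more has it named without values). They also included the 6 members whose 5mC fell most from DP to neurons and the 3 where it rose most. Within 2 kb of a TSS they were the 5 genes whose expression rose most from DP to neurons and the 3 whose expression fell most, among genes with expression of at least 50. Of these, 1 gene is not reported here. Python 3.11.15, pandas 2.3.3 and scipy 1.17.1 were used.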

Additional observations from a re-analysis of the deposited data

How the results depend on the processing

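Replicates are merged in the deposited levels, so no replicate could be left out and the depth behind a peak was not known. Small progenitor levels carry an error that cannot be stated from them. No paired analysis was possible because the level columns carry no replicate numbers and no result comes from a test. A minimum gain of 2 gave 218 members, of which 49.1% overlapped a 5mC peak, and a minimum of 1 gave 1531, of which 34.0% did. A PP to DP difference below 0.25 gave 301 members. Centring 5mC on its table median, chosen after seeing the data, gave a median difference of -0.40 in place of -0.58. The other 35 of 41 values compared kept their direction and stayed within the interval of the main value, or within 1.5 times the count. They covered the same settings, levels of at least 2, single positions, autosomes, a 50% overlap, a pseudocount of 10, expressed genes, genes within 10 kb, and, added after seeing the data, symbols on a single chromosome. The planned counts of CpGs and of CAGATG in windows around all members were not run, since sequence was read here only for promoter windows.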
